A study of Mus musculus with 10 samples.

Results

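The FAT, Dachsous and CELSR giant cadherins were followed here as a family of 8 genes, Fat1, Fat2, Fat3, Fat4, Dchs1, Celsr1, Celsr2 and Celsr3, taken by symbol from the 21959 genes of the table. They were chosen by their levels in these same tumors, in which Fat4 had been seen to be higher and Celsr2 lower in the exercise group. Those differences between groups are therefore given as values only, without a test. The variation of the genes within groups was not used in the choice. In Celsr2 it is still not independent of the choice, since a few high tumors of the non-exercise group enter both.

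FAT and Dachsous proteins are very large transmembrane cadherins with long rows of extracellular cadherin repeats. Fat4 and Dchs1 bind each other across neighbouring cells, which orients cells within a tissue and, in flies, feeds into the Hippo growth pathway. CELSR proteins are adhesion G protein-coupled receptors with cadherin repeats, and they bind each other between cells as part of the core planar polarity machinery with Frizzled and Vangl proteins. In epithelia Fat1 is known for its work at cell junctions and in limiting growth.

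RNA sequencing was performed on tumors of 10 female BALB/c mice, 5 to 6 weeks old, that all received 4T1 cells, a mouse mammary carcinoma line, under the skin of the abdomen. In the exercise group (E, 5 mice) a running wheel was available for voluntary running for 21 days, while the non-exercise group (NE, 5 mice) was housed without one. Each library came from 1 mouse, and tumors are named here by group and number, from E1 to E5 and from NE1 to NE5. A transplanted line is 1 tumor model in hosts with their own stroma, blood vessels and immune cells, so each library held RNA of tumor and host.

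The libraries held 15045613 to 20646763 assigned reads in the E group and 18706032 to 23092251 in the NE group. Summed levels of 12 epithelial markers ranged from 28.3 to 36.4 reads per 1000000 reads (CPM) in E and from 33.4 to 60.9 in NE, with NE5 highest. The defining epithelial genes Krt8, at 0 to 1.24 CPM, and Epcam, at 0.52 to 3.13 CPM, were low in every tumor, while Cdh1, the gene of E-cadherin, was at 6.82 to 20.6 CPM. Certain libraries stood apart in markers of other cells. Skeletal muscle markers summed to 25888 CPM in NE4, keratinocyte markers to 147 CPM in NE5 against at most 6.59 elsewhere, and fibroblast markers to 15777 CPM in E5. In bulk tumors, fewer cells of a type and less RNA per cell cannot be told apart.

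The start regions of Fat4 and Celsr2 are shown because these are the members with the widest separation between groups. Both are RefSeq windows of mouse build GRCm38.p6, from 250 bases before to 50 after the annotated start, and capitals mark each CG dinucleotide. The Fat4 window lies at chr3:38886690-38886989 on the plus strand and the Celsr2 window at chr3:108415530-108415829 on the minus strand.
Fat4: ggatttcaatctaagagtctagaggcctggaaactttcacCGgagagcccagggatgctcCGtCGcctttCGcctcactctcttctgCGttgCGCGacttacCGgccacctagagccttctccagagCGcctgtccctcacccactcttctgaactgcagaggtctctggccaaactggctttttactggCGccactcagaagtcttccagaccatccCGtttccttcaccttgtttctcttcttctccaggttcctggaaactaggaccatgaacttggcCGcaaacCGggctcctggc
Celsr2: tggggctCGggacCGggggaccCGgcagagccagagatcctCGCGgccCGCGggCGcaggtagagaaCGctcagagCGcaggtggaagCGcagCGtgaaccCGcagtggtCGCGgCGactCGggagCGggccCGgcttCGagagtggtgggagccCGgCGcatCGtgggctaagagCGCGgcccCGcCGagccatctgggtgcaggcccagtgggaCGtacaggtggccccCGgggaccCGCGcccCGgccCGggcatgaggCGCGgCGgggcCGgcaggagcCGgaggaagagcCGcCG
The Fat4 window held 13 CG dinucleotides, and 62.1% of the 32851 RefSeq windows of the same length held fewer. The Celsr2 window held 40, more than 96.1% of windows, against a median of 7. Both genes lie on chromosome 3 yet on opposite strands and far apart. The letters GGAATG, the core that TEAD factors of the Hippo pathway recognise, were searched on both strands as GGAATG or CATTCC, which cannot overlap each other, and were found in neither window. They occur in 14.7% of all windows.

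All members are long genes with long coding sequences in the GENCODE annotation of GRCm38. Fat4, on the plus strand of chromosome 3 from 38886940 to 39011985, has 17 exons in the transcript with the longest coding sequence, of 14943 nucleotides. Its partner Dchs1 lies on the minus strand of chromosome 7 from 105752990 to 105787654, with 21 exons and 9873 coding nucleotides. Fat1 lies on the plus strand of chromosome 8 from 44935447 to 45052257, Fat2 on the minus strand of chromosome 11 from 55250609 to 55336564, and Fat3 on the minus strand of chromosome 9 from 15910189 to 16501285. Celsr1 lies on the minus strand of chromosome 15 from 85898929 to 86033777, Celsr2 on the minus strand of chromosome 3 from 108390851 to 108415552, and Celsr3 on the plus strand of chromosome 9 from 108826320 to 108852969. None of the 50-base stretches of 7 members occurred in a transcript of another gene read in its own direction, and in Celsr3 16 of 11522 did. The opposite strand was not searched. Antisense or overlapping annotated genes cover 1490 exonic bases of Fat4, 648 of Dchs1, 487 of Fat1 and 65 of Celsr3. Since the strand of counting is not stated, their reads cannot be told apart from those of these members.

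Per length, Fat1 was by far the most abundant member and carried most of the family's RNA. Its level was 9.99 ± 1.08 fragments per kilobase and 1000000 reads (FPKM; mean ± SD, n = 10 tumors), above 62.6% of the 13517 genes with enough reads for testing. Fat2 followed at 3.14 ± 0.696 FPKM, Dchs1 at 2.12 ± 0.506 and Fat4 at 0.748 ± 0.228. The CELSR genes lay lower, with Celsr1 at 0.256 ± 0.0720 FPKM, Celsr2 at 0.0636 ± 0.0521 and Celsr3 at 0.0375 ± 0.0254. Fat3, a member best known from neurons, was close to absent.

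Fat1 took 61.0% of the summed family FPKM on average (58.5% to 66.7% across tumors), Fat2 19.2%, Dchs1 13.0% and Fat4 4.58%. The 3 CELSR genes and Fat3 shared the small remainder. The summed level of the family was narrow, at 14.2 to 18.1 FPKM, and its reads were 0.0211% to 0.0269% of all reads of a library.

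The order of the members was set by their mean FPKM in these same 10 tumors, so the differences between neighbours are a description, without a test. Fat1 exceeded Fat2 in 10 of 10 tumors, with a ratio of mean FPKM of 3.18. Dchs1 over Fat4 (ratio 2.84), Fat4 over Celsr1 (2.92) and Celsr1 over Celsr2 (4.03) held in 10 of 10 tumors as well. Celsr3 lay above Fat3, whose reads were too few for a ratio.

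Other neighbours were closer than their spread. Fat2 exceeded Dchs1 in 8 of 10 tumors with a ratio of 1.48, and the difference in log2(FPKM + 0.1) within a tumor was 0.55 ± 0.62 (SD, n = 10). Celsr2 exceeded Celsr3 in 7 of 10 tumors with a ratio of 1.70, and that difference was 0.22 ± 0.43 (SD, n = 10).

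**Figure D1:**
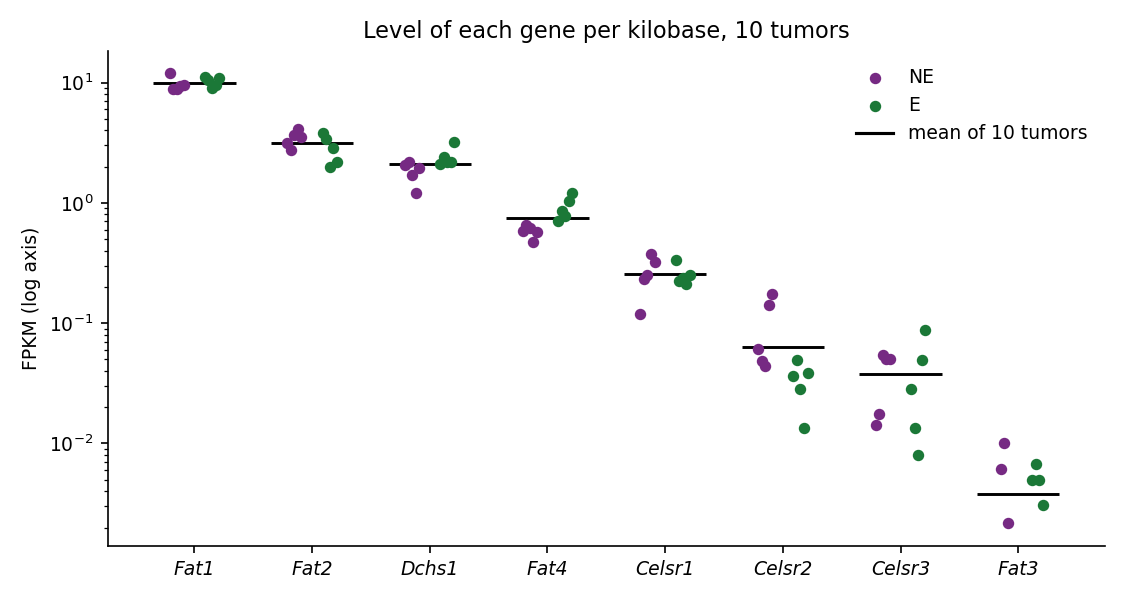
FPKM of the 8 giant cadherins in each tumor (log axis), ordered by mean level, with E and NE tumors as separate points. Fat1 stands at the top at a mean of 9.99 FPKM and Fat3 at the bottom, and tumors at 0 (3 for Fat3) are not drawn. The ranges of neighbours overlap for Fat2 and Dchs1 and among Celsr1, Celsr2, Celsr3 and Fat3.

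Fat4, the receptor of the Fat4-Dchs1 pair in mammals, was at 11.9, 14.4, 13.6, 17.6 and 20.2 CPM in tumors E1 to E5. In NE1 to NE5 it was at 9.80, 11.3, 10.7, 8.47 and 9.97 CPM. Every E tumor lay above every NE tumor, although the lowest E tumor and the highest NE tumor, at 11.9 and 11.3 CPM, were close. These values rested on 248 to 330 reads per E library and on 185 to 243 per NE library. The E mean of 15.5 ± 3.34 CPM (SD, n = 5) was 154.6% of the NE mean of 10.1 ± 1.07 CPM (SD, n = 5). The fitted log2 fold change was 0.63 (SE 0.152), and 0.33 with log2 total count as a covariate.

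Fat4 was the only member tested whose groups did not overlap. Among the 13517 genes tested, 0.725% lay apart, 0.444% with E higher and 0.281% with E lower, and since Fat4 was chosen for this difference nothing is read from its count. No gene of the 13517 passed a fold change of 2 with a false discovery rate (FDR) of 0.05 in edgeR's quasi-likelihood test (0% called), while 657 genes (4.86%) had an unadjusted p of 0.05 or less, 2.57% with E higher and 2.29% with E lower. DESeq2, limma-voom and edgeR's exact test also called 0 genes at those thresholds, with 800, 1800 and 352 genes at that unadjusted p.

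Dchs1, the gene of the Dachsous ligand that binds Fat4, was at 22.9, 26.2, 24.3, 23.8 and 34.8 CPM in E1 to E5. In NE1 to NE5 it was at 22.3, 24.5, 18.9, 14.1 and 22.0 CPM. The groups overlapped, with E5 highest of all and NE4 lowest, and the E tumor was the higher in 22 of 25 pairings of an E with an NE tumor. The E tumors averaged 26.4 ± 4.83 CPM and the NE tumors 20.4 ± 4.02 CPM (SD, n = 5 per group), a log2 fold change of 0.37 (SE 0.162), and 0.08 with log2 total count as a covariate. Fat4 was chosen for its higher level in E, so nothing is read from the higher E mean of both genes. Both were at their highest in E5.

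Summed fibroblast markers were also highest in E5. All 12 fibroblast markers had a positive log2 fold change (median 0.60), against 6221 of 13517 genes tested, and 0 of 12 were called. Their summed level was 15777 CPM in E5 and 2323 to 5288 CPM in the other E tumors (median 4215 over all of E). In NE it was 1086 to 5279 CPM (median 2558). With group means subtracted, Fat4 and the fibroblast score had r = 0.350 (exact permutation p = 0.330, adjusted 0.695, 10 tumors), with rho = 0.418 (exact permutation p = 0.268, adjusted 0.744). For Dchs1 and that score r was -0.069 (exact permutation p = 0.869, adjusted 0.924), with rho = 0.018 (exact permutation p = 0.977, adjusted 1). Leaving out E5 and NE1, the tumors farthest from the median score, gave r = 0.099 for Fat4 and -0.375 for Dchs1. The score farthest from 0 in r for Dchs1 was that of adipocytes, r = -0.736 (exact permutation p adjusted 0.372), and -0.443 without NE1 and NE4. For Fat4 it was the neutrophil score, r = 0.586 (exact permutation p adjusted 0.592), and 0.489 without E5 and NE4. With the epithelial score as a covariate the log2 fold changes were 0.46 for Fat4 and 0.23 for Dchs1. The part of these cells was not tested.

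Fat1, an atypical cadherin of cell borders, was the steadiest member. It was at 172, 162, 143, 148 and 168 CPM in E1 to E5, and at 183, 139.5, 139.7, 155 and 153 CPM in NE1 to NE5. The NE range spanned that of E, and the highest tumor, NE1, was only 1.31 times the lowest. The E tumors averaged 158.5 ± 12.5 CPM and the NE tumors 154.0 ± 17.8 CPM (SD, n = 5 per group), a log2 fold change of 0.04 (SE 0.0859) on 2580 to 4316 reads per library.

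Fat2, the FAT member nearest to Fat1 in level, was at 54.7, 48.0, 29.4, 41.1 and 30.9 CPM in E1 to E5. In NE1 to NE5 it was at 44.6, 40.5, 52.9, 63.3 and 51.7 CPM. The groups overlapped, with E3 and E5 lowest and NE4 highest. The E mean was 40.8 ± 10.9 CPM against an NE mean of 50.6 ± 8.75 CPM (SD, n = 5 per group), a log2 fold change of -0.31 (SE 0.185), and the E tumor was the higher in 7 of 25 pairings. It was -0.06 with log2 total count and -0.08 with the epithelial score as a covariate.

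Fat3 was read 0 to 5 times per library and was at 0 in 3 of 10 tumors, so no fold change is given. A count of 0 allows up to 3 reads, and 9 of its 10 counts were at or under that limit. Its level cannot be compared between groups at this depth.

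**Figure D2:**
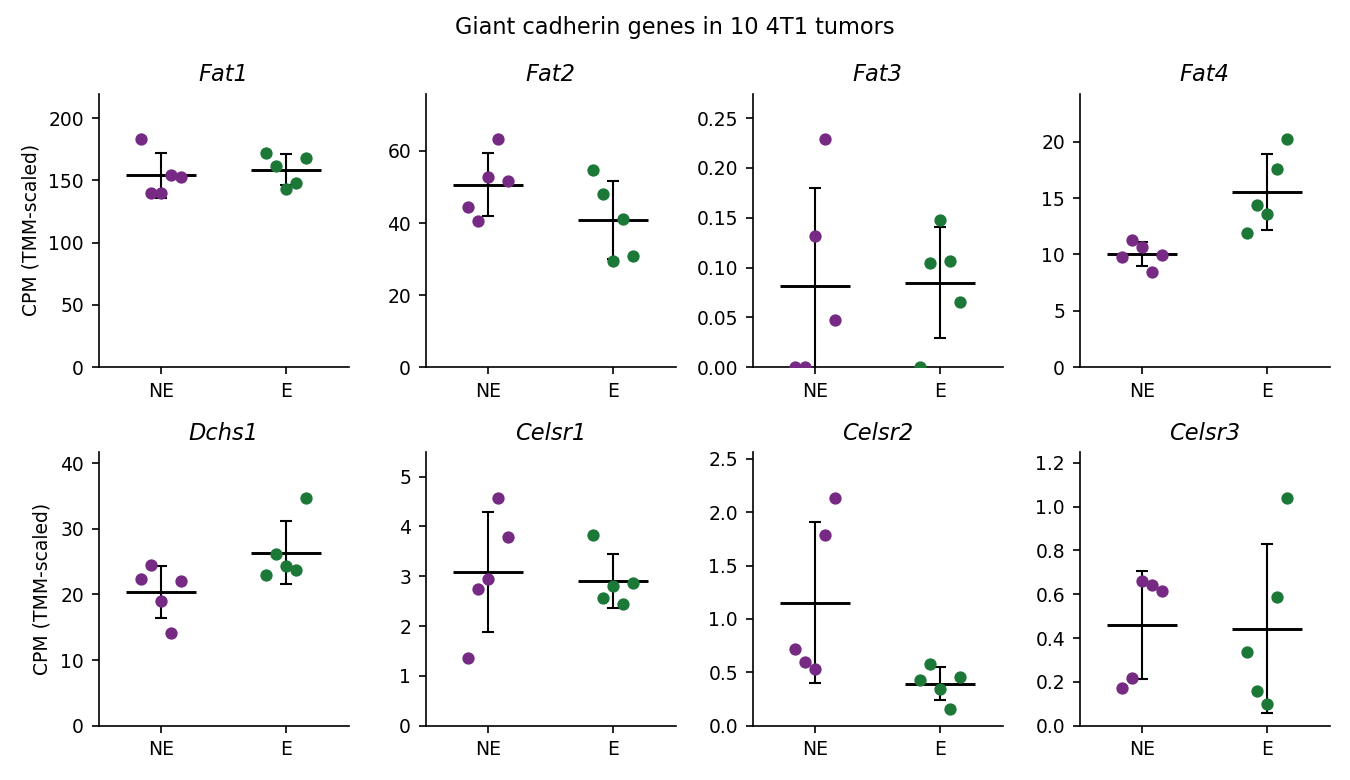
CPM of the 8 giant cadherins scaled by TMM factors, with each tumor as a point, the group mean as a bar and the SD as whiskers, and a separate linear axis from 0 for each gene. The E and NE points of Fat4 lie apart (lowest E 11.9, highest NE 11.3 CPM), those of every other gene overlap, and NE4 and NE5 stand above the rest in Celsr2.

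Celsr1, a planar polarity cadherin of epithelia, was at 3.83, 2.57, 2.80, 2.45 and 2.86 CPM in E1 to E5. In NE1 to NE5 it was at 1.36, 2.75, 2.95, 4.58 and 3.80 CPM. Both the highest and the lowest tumor belonged to NE, and the E mean of 2.90 ± 0.544 and the NE mean of 3.09 ± 1.21 CPM (SD, n = 5 per group) lay within that spread. The log2 fold change was -0.09 (SE 0.292), and 0.55 with the epithelial score as a covariate. With group means subtracted, Celsr1 and the epithelial score had r = 0.793 (exact permutation p = 0.0187, adjusted 0.302). Their rho was 0.867 (exact permutation p = 0.00382, adjusted 0.160), and r was 0.788 without NE1 and NE5. With the macrophage and T cell scores r was 0.846 and 0.877 (exact permutation p adjusted 0.302 and 0.209). The first was 0.627 without E3 and NE1, and the second 0.470 without NE1 and NE4. Taken singly, the 6 tested epithelial markers had a median r of 0.107 with Celsr1, and the 10 macrophage or monocyte markers one of 0.839.

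Celsr2, a close relative of Celsr1, rested on few reads, 9, 11, 7, 3 and 7 in E1 to E5 and 17, 11, 12, 39 and 45 in NE1 to NE5. Scaled to depth these were 0.431, 0.577, 0.344, 0.160 and 0.456 CPM in E and 0.722, 0.593, 0.529, 1.79 and 2.14 CPM in NE. NE4 and NE5 stood well above the other tumors, and without them the remaining NE tumors reached from 0.529 to 0.722 CPM, next to 0.577 in the highest E tumor. The groups overlapped, since E2 lay above NE3. The E tumors averaged 0.393 ± 0.155 CPM and the NE tumors 1.15 ± 0.751 CPM (SD, n = 5 per group), so that E was at 34.1% of NE.

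The fitted log2 fold change of Celsr2 was -1.54 (SE 0.492), and -0.65 when both NE4 and NE5 were left out, a choice made after the data were seen. Counting error alone was wide at these reads. In CPM of total counts, the 95% Wilson interval ran from 0.329 to 1.06 in E2 and from 0.0550 to 0.476 in E4. It ran from 1.24 to 2.32 in NE4 and from 1.57 to 2.81 in NE5, the highest tumors. In NE1 (0.460 to 1.18), NE2 (0.328 to 1.05) and NE3 (0.302 to 0.923) it overlapped that of E2. Since Celsr2 was chosen on these values, nothing is read from them about the groups. Such intervals cover counting error only. Celsr2 passed the filter on low values, 0.485 CPM in at least 5 tumors, with 5 NE tumors and 1 E tumor at or above it, so it passed through the NE group.

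NE4 and NE5 were, like E5, among the libraries that stood apart in markers of other cells, while Celsr2 was at 0.456 CPM in E5. NE4 had the highest skeletal muscle sum, 25888 CPM, against 12.0 to 3904 CPM in the other tumors, and NE5 the highest keratinocyte and epithelial sums, 147 and 60.9 CPM. Of the 12 epithelial markers 6 were tested, of which 4 had a log2 fold change below 0 and 2 above 0 (median -0.42). Of these, 3 were lower in E at an unadjusted p of 0.05 or less, against 2.29% of all genes tested, and 0 were called. In at least 1 tumor 4 of the 12 markers were at 0. With group means subtracted, Celsr2 and the epithelial score had r = 0.640, rho = 0.527 and r = 0.452 without NE1 and NE5. With the keratinocyte score r was 0.578, rho was 0.455 and r was 0.225 without NE1 and NE5. With the skeletal muscle score r was 0.268, rho was 0.091 and r was -0.239 without NE1 and NE4. The log2 fold change of Celsr2 was -0.58 with the epithelial score and -1.56 with the skeletal muscle score as a covariate. Of the 10 keratinocyte markers, 8 were at 0 in at least 1 tumor. NE4 and NE5, on which the difference between groups largely rests, also lay farthest above their group mean in Celsr2. The correlations of Celsr2 are therefore not independent of its choice and are given as values only. The part of these other cells in the result was not tested further.

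**Figure D3:**
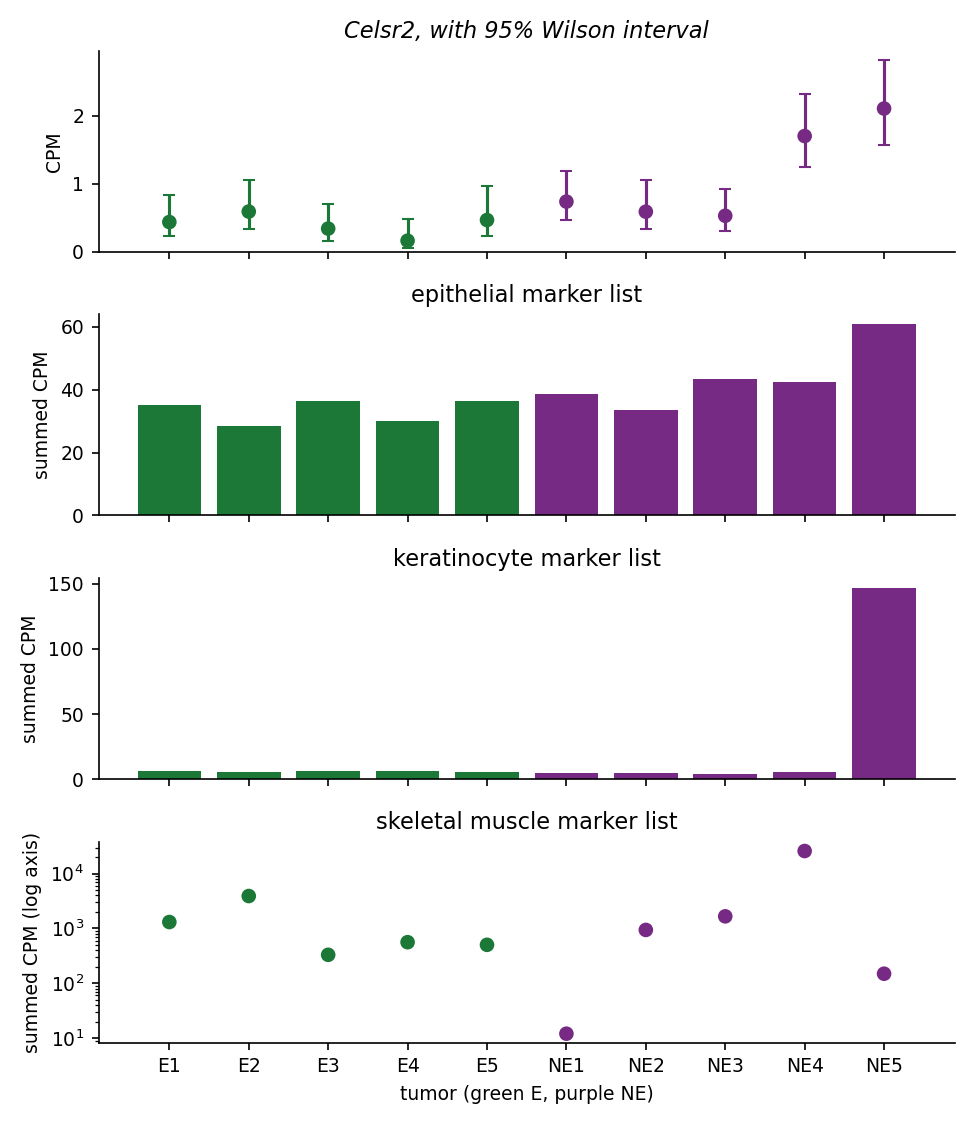
Celsr2 in each tumor as CPM of total counts with its 95% Wilson interval (top), above the summed CPM of the epithelial, keratinocyte and skeletal muscle marker lists in the same tumors (the last on a log axis). The 2 tumors highest in Celsr2, NE4 at 1.70 and NE5 at 2.10 CPM, are also the highest in muscle markers (NE4, 25888 CPM) and in keratinocyte markers (NE5, 147 CPM).

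Celsr3, the CELSR member best known from neurons, had 7, 3, 2, 11 and 16 reads in E1 to E5 and 4, 4, 15, 14 and 13 in NE1 to NE5. In CPM these were 0.335, 0.157, 0.0983, 0.586 and 1.04 in E and 0.170, 0.216, 0.661, 0.641 and 0.617 in NE. Low and high tumors occurred in both groups, with a mean of 0.444 ± 0.384 CPM for E and 0.461 ± 0.246 CPM for NE (SD, n = 5 per group). The log2 fold change of -0.10 (SE 0.626) was far within its error.

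Celsr3 was the only member with a relation to a marker score that passed adjustment over the 84 relations of 7 members and 12 scores, a family of relations added after the data were seen. Its r with the neutrophil score was 0.808 over 10 tumors with group means subtracted (exact permutation p = 0.000347, adjusted 0.0292), and 0.797 without E5 and NE4. The rank correlation, rho = 0.818 (exact permutation p = 0.00132, adjusted 0.111), did not pass. The summed neutrophil markers were at 312 CPM in E5, the tumor highest in Celsr3, and at 15.3 to 54.6 CPM elsewhere. Celsr3 had r = 0.843 with the fibroblast score (exact permutation p = 0.00181, adjusted 0.0758) and rho = 0.842 (exact permutation p = 0.00597, adjusted 0.167), and r = 0.763 without E5 and NE1. With 2 to 16 reads per library, its values carry large counting error.

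Within groups, pairs of members ranged from opposite to similar variation. Over the 21 pairs of the 7 members tested, r of log2 CPM with group means subtracted ranged from -0.663 to 0.709. Of the pairs, 11 lay above 0. The subtraction removed the difference between group means. Pairs with Celsr2 still hold its high values in NE4 and NE5 and are not independent of its choice. No pair passed an adjusted p of 0.05.

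The highest value was that of the binding partners Fat4 and Dchs1, r = 0.709 (exact permutation p = 0.0137, adjusted 0.287) with rho = 0.648 (exact permutation p = 0.0505, adjusted 0.530). Without E1 and E5 it was r = 0.550. The lowest value was that of Fat2 and Dchs1, r = -0.663 (exact permutation p = 0.0291, adjusted 0.306) with rho = -0.661 (exact permutation p = 0.0485, adjusted 0.530), and r was -0.867 without E1 and E3. Fat2 and Fat4 had r = -0.599 (exact permutation p = 0.140, adjusted 0.604) and rho = -0.515 (exact permutation p = 0.221, adjusted 0.554), and r was -0.788 without E1 and E3.

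**Figure D4:**
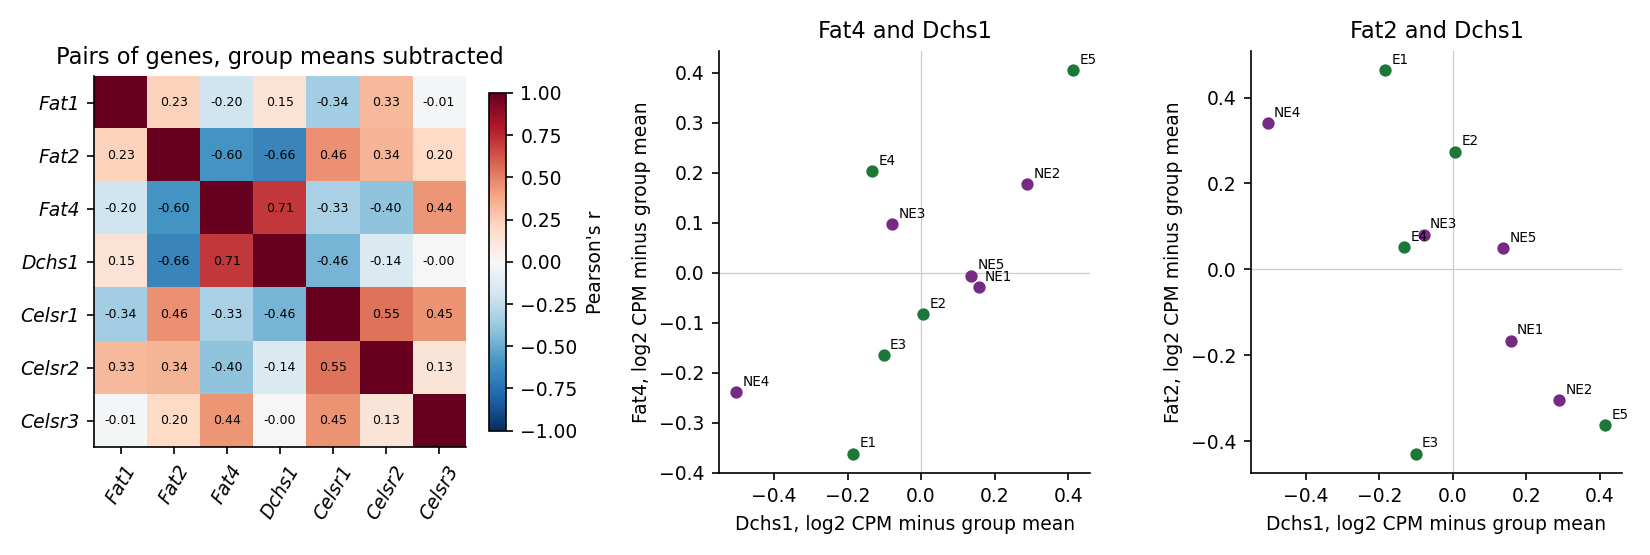
Pearson's r between the log2 CPM of 7 giant cadherins over 10 tumors after subtraction of group means (left), with the tumors of the highest pair, Fat4 and Dchs1 (middle, r = 0.709), and of the lowest, Fat2 and Dchs1 (right, r = -0.663), as points named by tumor. In Dchs1, NE4 lies farthest below its group mean (-0.50) and E5 farthest above (0.41).

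The genes whose within-group pattern over the 10 tumors was most like a member's, by r of log2 CPM with group means subtracted among 13510 genes, are given as a description. For Fat4 these included Ap3s1 (r = 0.950), Il1rl2 (0.881), Bmf (0.875) and Rapgef2 (0.872). For Celsr2 they were Slc45a3 (0.907), Dop1b (0.885), Dag1 (0.865), Pi4ka (0.860) and Fasn (0.860). The high Celsr2 values of NE4 and NE5 enter these, so they are not independent of its choice. For the other members the 2 most alike were Polr2e (0.954) and Prrc2b (0.953) for Fat1, Itgb7 (0.953) and Psme2 (0.927) for Fat2, and Trio (0.971) and C1qtnf6 (0.956) for Dchs1. Dnah1 (0.972) and Atp2b4 (0.961) were most like Celsr1, and Thy1 (0.946) and Osm (0.913) most like Celsr3. With 10 tumors and this many genes, values of this size were found for each of the 7 members tested, and 8 of the 20 genes found by this rule were named again without subtraction of group means and 4 by rank correlation.

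The other genes of the pathways were taken from lists, and 0 genes of any list were called. Of 5 tested Fat-Dachsous partners, 0 had an unadjusted p of 0.05 or less, and their median log2 fold change was 0.04, against -0.01 over all genes tested. Dchs2, the other Dachsous gene, was at 1 to 27 reads and was not tested, and Fjx1, the homologue of a fly Golgi kinase that acts on Fat and Dachsous, was at 1.16 ± 0.466 CPM in E and 1.32 ± 0.652 in NE. Fbxl7, whose fly counterpart acts downstream of Fat, had the smallest p among the partners, with a log2 fold change of 0.57 (SE 0.302).

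Of 19 core planar polarity genes, the machinery in which CELSR proteins act, 3 had an unadjusted p of 0.05 or less, all higher in E, where 2.57% of all genes tested did so, and the median log2 fold change was 0.03. These were Vangl2, at 5.76 ± 0.386 CPM in E and 4.34 ± 1.09 in NE (log2 fold change 0.41, SE 0.178), Ror2 (0.59, SE 0.212) and Ptk7 (0.58, SE 0.214). Without E5, the tumor highest in fibroblast markers, Ror2 was at 0.38 and Ptk7 at 0.36, and with log2 total count as a covariate they were at 0.28 and 0.20. Vangl2 was at 0.17 with the epithelial score as a covariate. The more abundant Vangl1 was at 63.0 ± 1.47 CPM in E and 62.3 ± 7.39 in NE. The Frizzled gene Fzd6 had a log2 fold change of 0.07 (SE 0.146) and Fzd3 one of -0.58 (SE 0.292).

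Of 27 Hippo kinases and effectors, 1 (Wwc2, 0.25, SE 0.106) had an unadjusted p of 0.05 or less, against 4.86% of all genes tested, and the median log2 fold change was 0.02. The kinase genes Lats1 and Lats2 had log2 fold changes of 0.03 (SE 0.0755) and -0.03 (SE 0.0622). The co-activator genes Yap1 and Wwtr1 had values of -0.02 (SE 0.0686) and 0.18 (SE 0.0989).

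Of 22 YAP and TAZ target genes, 2 had an unadjusted p of 0.05 or less, both higher in E, and 1 lay apart with E higher, against 2.57% and 0.444% of all genes tested. Ccn1, a secreted matrix protein gene, was at 140.5 ± 24.6 CPM in E (117.5 to 176 CPM) and 84.0 ± 21.3 CPM in NE (49.8 to 106 CPM), a log2 fold change of 0.74 (SE 0.188, edgeR FDR 0.897). Ccn2, its relative, had a log2 fold change of 0.43 (SE 0.176, edgeR FDR 0.897). The median of the list was 0.02.

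Of 11 tested classical cadherins and catenins, and of 17 tested adhesion receptors of the CELSR superfamily, 0 had an unadjusted p of 0.05 or less. Their median log2 fold changes were 0.06 and 0.07. Cdh1 was at 11.8 ± 4.07 CPM in E and 10.5 ± 5.75 in NE, and Adgrl2, a latrophilin, had a log2 fold change of 0.28 (SE 0.143). For comparison with other long transcripts, the 1341 tested genes with a deposited length of at least 10000 bases had a median log2 fold change of -0.01.

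**Figure D5:**
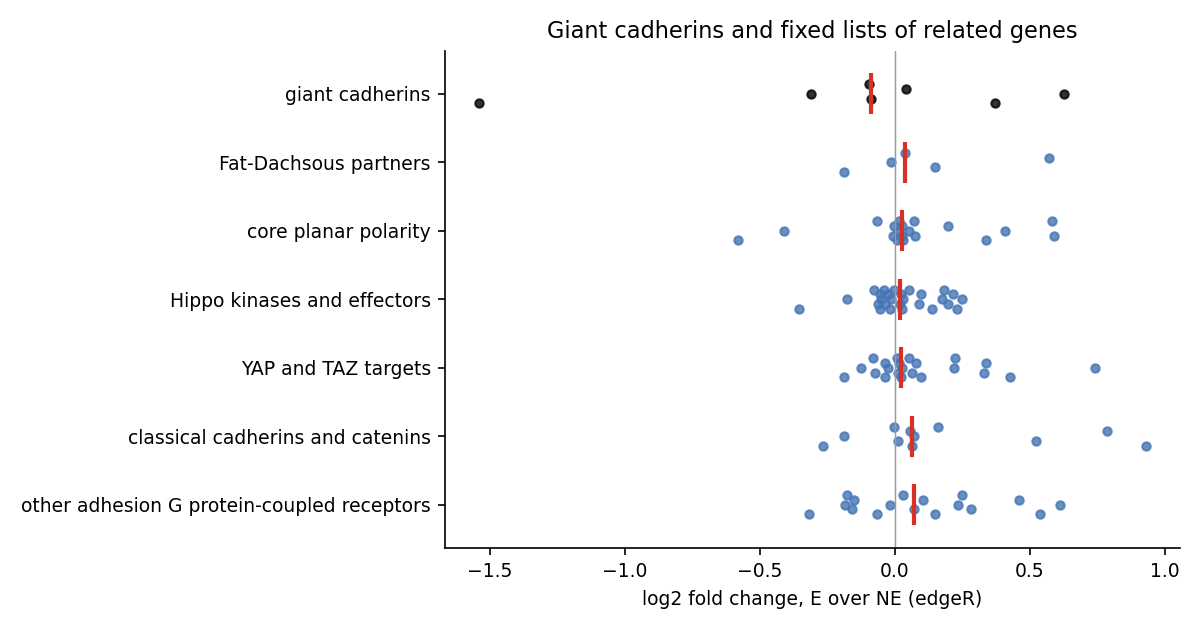
Log2 fold change of E over NE from edgeR for the 7 tested giant cadherins and for the tested genes of 6 related lists, each point a gene and each red bar the median of its list. The medians of the related lists lie between 0.02 and 0.07, and the giant cadherins reach from -1.54 (Celsr2) to 0.63 (Fat4).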

How the data were processed

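The tumors were sequenced as mRNA libraries. The authors used Hisat2 for alignment and Stringtie for expression levels. Their deposited table gives, per gene and tumor, a raw read count and an FPKM. How the counts were made is not given in the sources used here. Each deposited FPKM was recovered from the count, the listed length and the library total (largest relative deviation 3.78e-14), so it holds no TMM scaling. For the alignment the paper names a rat genome build, while the deposited gene identifiers are those of mouse. The build of the deposited coordinates is therefore not settled, and they were not used. GENCODE M21 and RefSeq coordinates of GRCm38 are given instead.

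Groups and numbers came from the sample titles. The 8 members, the lists and the tests were chosen with earlier results of these data known. Counts were scaled by TMM (factors 0.951 to 1.02) and fitted over all genes that passed edgeR's filter for low counts (13517 of 21959) with edgeR's quasi-likelihood test in edgeR 4.0.16 under R 4.3.3, with Benjamini-Hochberg adjustment over all of them. CPM are TMM-scaled unless said otherwise. The test was checked on simulated counts. A gene was called at an FDR of at most 0.05 together with at least a 2-fold difference. No p is given for the difference of a member between groups, because the members were chosen on it, nor for the order of their levels, which was set on the same values. Correlations used log2 CPM with group means subtracted and exact permutation within groups (14400 rearrangements). A marker score was the mean log2(CPM + 1) of a list. Pathway genes were named by fixed symbols and by the smallest unadjusted p in each list.

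Depth was 15045613 to 23092251 reads. The labels give 1 title per mouse, and p-values measure the spread between these tumors. DESeq2 1.42.0, limma 3.58.1, other filters and scalings, covariates and leaving out each tumor were the alternatives. A gene that the naming rule picked is not reported here.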

Additional observations from a re-analysis of the deposited data

Results flagged for a closer look

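Dchs1 in E5, at 34.8 CPM against 22.9 to 26.2 CPM in the other E tumors, was farther from its group than Dixon's test allows at the 95% level. It was the only one of 16 groups of 5 tumors flagged, and chance flags about 1 in 20. E5 also had the highest summed fibroblast and neutrophil markers, 15777 and 312 CPM, and the part of these in the value was not tested.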

How the results depend on the processing

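No gene was called under edgeR with adjustment, and 56 genes passed a fold change of 2 with an unadjusted p of 0.05. With 1 tumor left out that count ran from 33 without E5 to 110 without NE1. Over all settings it ran from 8 on log2(FPKM + 1) to 250 with no filter on low counts. Fat4 stayed higher in E under all 24 alternatives, at 0.51 to 0.72 (log2) with each tumor left out in turn, at 0.27 on log2(FPKM + 1) and at 0.33 with log2 total count as a covariate. Celsr2 stayed lower in E under all 23 alternatives that kept it, at -1.72 to -1.20 with each tumor left out, at -0.081 and -0.50 on log2(FPKM + 1) and log2(FPKM + 0.1), at -0.58 with the epithelial score as a covariate and at -0.65 without NE4 and NE5. It was not tested where at least 10 reads were required in every tumor. A pseudocount far above the level of a low gene shrinks its difference by construction; the cause of the other shifts was not tested. With log2 total count as a covariate Dchs1 was at 0.08 and Fat2 at -0.06, Celsr1 changed sign in 4 alternatives and Celsr3 in 7. Without subtraction of group means Fat4 and Dchs1 had r = 0.821. That value includes the difference between groups on which Fat4 was chosen, so no test of it is given. With the means subtracted r was 0.709 (exact permutation p adjusted 0.287). Of the 20 genes most like a member, 8 were named again without subtraction and 4 by Spearman's rho. The paper speaks of 5 matched pairs, but the sample titles do not say which tumors form a pair. Tumors with the same number did not vary together (r from -0.256 to 0.321 over genes, 1 of 5 closest to its own number). This cannot show whether the mice were paired by design, and the main fit used no pairing. With the replicate block 0 genes were called, 48 passed the unadjusted rule, and Fat4 and Celsr2 were at 0.61 and -1.36. Celsr2, Celsr3 and Fat3 are limited by depth.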
